A study of Homo sapiens with 3 samples.

Results

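The proteasome genes were taken as all protein-coding RefSeq transcripts (accessions that begin with NM) of genes named PSMA, PSMB, PSMC, PSMD, PSME, PSMF or PSMG followed by digits. The rule found 46 of the 11487 genes with such a transcript in the authors' deposited table, carried by 72 of 17868 transcripts. Of the 48 genes of this naming that were listed by role, PSMA8 and PSMB11, the testis and thymus forms of core subunits, were not analysed here. Every value below is a log2 fold change, shRBMS1 over shControl, from the authors' deposited table. Where a gene has several NM transcripts there, their median, computed here, stands for the gene.

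SW480, an established human colon adenocarcinoma line, was transduced with control short hairpin RNA (shControl, 2 libraries) or with 1 hairpin against RBMS1 (shRBMS1, 1 library). All cells were grown in the same medium, and total RNA was taken 48 hours after transduction, freed of ribosomal RNA and sequenced. The labels do not say if the control libraries share a hairpin sequence. RBMS1 binds AU-rich RNA, AUAUA among the motifs known for it. With 1 knockdown library and fold changes alone, no error, interval or p-value is given, the depth is unknown, and less RNA per cell cannot be told apart from fewer cells. From the authors' deposited table, RBMS1 itself (chr2:160272151-160493807) had a value of −1.49 or 35.6% of control, its transcripts being at −1.62 and −1.36. The direction of the ratio is not stated there and was set by this value, so it does not check the labels. If the ratio ran the other way, every sign below would turn. Fold changes do not show how strongly a marker is expressed. Of 7 markers of colon epithelium, 6 had a value, all but KRT20. By gene, KRT8 was at 0.10, EPCAM at −0.37, CDX2 at −0.43, CDH1 at −0.79, KRT18 at −1.09 and VIL1 at −2.33.

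The proteasome is the cell's main machine for degrading proteins tagged with ubiquitin. Its core particle is a barrel of alpha rings, which gate the entry, around beta rings, which hold the proteolytic sites. The regulatory particle caps the barrel. Its base holds a ring of ATPases that unfold the substrate, and its lid removes the ubiquitin chain. Subunits are needed in fixed proportion, and the transcription factor NFE2L1 is known to raise their genes together when proteasome activity falls. In tumour cells the proteasome is best known as a drug target.

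Promoters and binding-type sites are shown as a description: the promoters of genes at either end of the values, and ATATA (the DNA form of AUAUA) in 3′ untranslated regions. Whether either bears on the members' values was not tested. The promoters come from RefSeq (GRCh38.p14) and run from 250 bases before to 50 after a gene start, 5′ to 3′ on the gene's strand. PSMB5 was the highest member, PSMA5 the highest alpha subunit and PSMC5 the lowest member, and PSMB5 and PSMC5 each have a pair of annotated starts. The windows of PSMB5 lie at chr14:23035171-23035470 (minus strand) and chr14:23034851-23035150 (minus), that of PSMA5 at chr1:109426399-109426698 (minus) and those of PSMC5 at chr17:63827181-63827480 (plus) and chr17:63827471-63827770 (plus). Capitals mark matches to CCAAT, TGACNNNGC (the core of the element that NFE2L1 binds), TATAAA or CCGGAAG (the site of ETS factors), on either strand.
PSMB5, upstream start: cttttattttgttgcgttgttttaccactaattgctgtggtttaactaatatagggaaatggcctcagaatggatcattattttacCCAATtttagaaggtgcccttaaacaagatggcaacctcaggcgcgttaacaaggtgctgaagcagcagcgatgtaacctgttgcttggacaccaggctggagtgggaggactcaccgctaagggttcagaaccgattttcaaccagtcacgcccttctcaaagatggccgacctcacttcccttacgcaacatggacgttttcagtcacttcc
PSMB5, downstream start: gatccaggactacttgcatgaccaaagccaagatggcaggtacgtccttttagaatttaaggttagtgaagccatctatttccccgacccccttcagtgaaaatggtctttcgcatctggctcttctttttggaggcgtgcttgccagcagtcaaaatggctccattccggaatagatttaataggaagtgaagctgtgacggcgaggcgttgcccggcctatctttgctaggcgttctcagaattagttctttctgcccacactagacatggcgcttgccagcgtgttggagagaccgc
PSMA5: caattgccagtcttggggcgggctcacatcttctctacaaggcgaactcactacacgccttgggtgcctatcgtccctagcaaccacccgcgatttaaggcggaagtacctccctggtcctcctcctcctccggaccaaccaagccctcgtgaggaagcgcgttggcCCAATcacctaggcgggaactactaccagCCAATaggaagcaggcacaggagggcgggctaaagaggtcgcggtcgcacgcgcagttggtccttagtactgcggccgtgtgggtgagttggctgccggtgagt
PSMC5, upstream start: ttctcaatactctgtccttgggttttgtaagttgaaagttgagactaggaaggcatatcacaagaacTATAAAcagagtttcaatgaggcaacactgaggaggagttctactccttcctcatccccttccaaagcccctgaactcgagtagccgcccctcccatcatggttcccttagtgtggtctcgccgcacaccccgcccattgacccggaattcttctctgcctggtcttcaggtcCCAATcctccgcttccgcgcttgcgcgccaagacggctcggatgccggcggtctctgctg
PSMC5, downstream start: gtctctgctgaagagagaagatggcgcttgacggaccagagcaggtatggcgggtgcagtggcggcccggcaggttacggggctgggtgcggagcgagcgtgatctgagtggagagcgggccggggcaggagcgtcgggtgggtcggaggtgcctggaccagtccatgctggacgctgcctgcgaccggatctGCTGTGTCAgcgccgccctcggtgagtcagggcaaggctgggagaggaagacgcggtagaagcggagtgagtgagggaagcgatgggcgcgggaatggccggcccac

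The upstream PSMB5 window holds CCAAT once and the downstream one none of the 4 motifs. PSMA5 holds CCAAT 2 times, 83 and 54 bases before its start, and the upstream PSMC5 window holds TATAAA and CCAAT. The downstream PSMC5 window holds TGACNNNGC on the opposite strand, 57 bases before its start. Promoters were matched for 40 of the 46 members, 49 windows in all. A gene was counted when any of its windows matched. CCAAT occurred at 19 of the 40 genes (47.5%), against 43.6% of 9527 measured genes and 39.7% of all 27305 genes with windows. TGACNNNGC occurred at 15 (37.5%) against 19.6% and 16.1%, CCGGAAG at 14 (35%) against 23.7% and 12.2%, and TATAAA at 4 (10.0%) against 8.03% and 14.0%. The median value of members with TGACNNNGC was −0.03 and of those without it 0.16. For CCAAT the corresponding medians were 0.16 and −0.03. A match is a description of these letters and not a binding site.

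The sites below are the first ATATA, in capitals with 10 bases on each side, in the 3′ untranslated region of each member whose lowest-numbered transcript holds at least 4 of them in GENCODE 29. They lie at chr7:103368092-103368116 (plus strand, PSMC2), chr1:109400683-109400707 (minus, PSMA5), chr20:1165370-1165394 (plus, PSMF1), chr1:35603133-35603157 (minus, PSMB2), chr17:67340497-67340521 (minus, PSMD12) and chr9:120817431-120817455 (minus, PSMD5), on hg38.
PSMC2: tcctaaccttATATAgacttgttaa
PSMA5: caacatgtttATATAcatttggaaa
PSMF1: cttcagcaacATATAtcctcgacca
PSMB2: gtgactatggATATAattgagccct
PSMD12: taaaagcagtATATAcatatttcct
PSMD5: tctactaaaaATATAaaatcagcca

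These 6 genes did not share a direction by gene value. Computed from the authors' deposited table, PSMA5 and PSMC2 were at 0.93 and 0.16. PSMD12, PSMD5, PSMB2 and PSMF1 were at −0.12, −0.16, −0.32 and −0.34 by the same measure. In this order the regions of the 6 genes hold 5, 6, 4, 4, 4 and 5 sites, counted on the lowest-numbered transcript. That transcript was at 0.17 for PSMA5 and 0.22 for PSMC2 in the authors' deposited table. At least 1 site was found in 19 of 44 members with a 3′ untranslated region (43.2%) and in 57.0% of 11122 genes. By gene value, members with a site in the lowest-numbered transcript had a median of 0.04 and those without one 0.18. The same medians over all genes were 0.01 and −0.01. Untranslated regions with a site were longer, with medians of 821 and 132 bases among members, and their transcripts had less GC, with medians of 45.4% and 53.2%. The part of length and composition in the difference was not tested.

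As a group the proteasome genes differed little between the arms. Their median was 0.07, 104.7% of control, with quartiles of −0.10 and 0.25, against a median of 0.0034 and quartiles of −0.26 and 0.22 over all genes. No member lay at or above 1, where 3.62% of all genes lay, and none at or below −1, where 4.06% lay. Values above 0 were found for 28 of 46 (60.9%) against 50.4% of all genes. At the lower threshold of 0.5, 6 members (13.0%) lay at or above it, against 9.3% of all genes. These were PSMB5 (chr14:23025851-23035220), PSMA5 (chr1:109399042-109426448), PSMA3 (chr14:58244843-58272004), PSMA4 (chr15:78540405-78552417), PSMG1 (chr21:39174769-39183514) and PSMG2 (chr18:12658738-12725740), by RefSeq on GRCh38.p14. At or below −0.5 lay PSMB9 (chr6:32854192-32859851), PSMD11 (chr17:32444510-32483319) and PSMC5 (chr17:63827431-63832019), 3 members (6.52%) against 13.3%. The distance from 0 had a median of 0.19 for members and 0.24 for all genes.

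**Figure D1:**
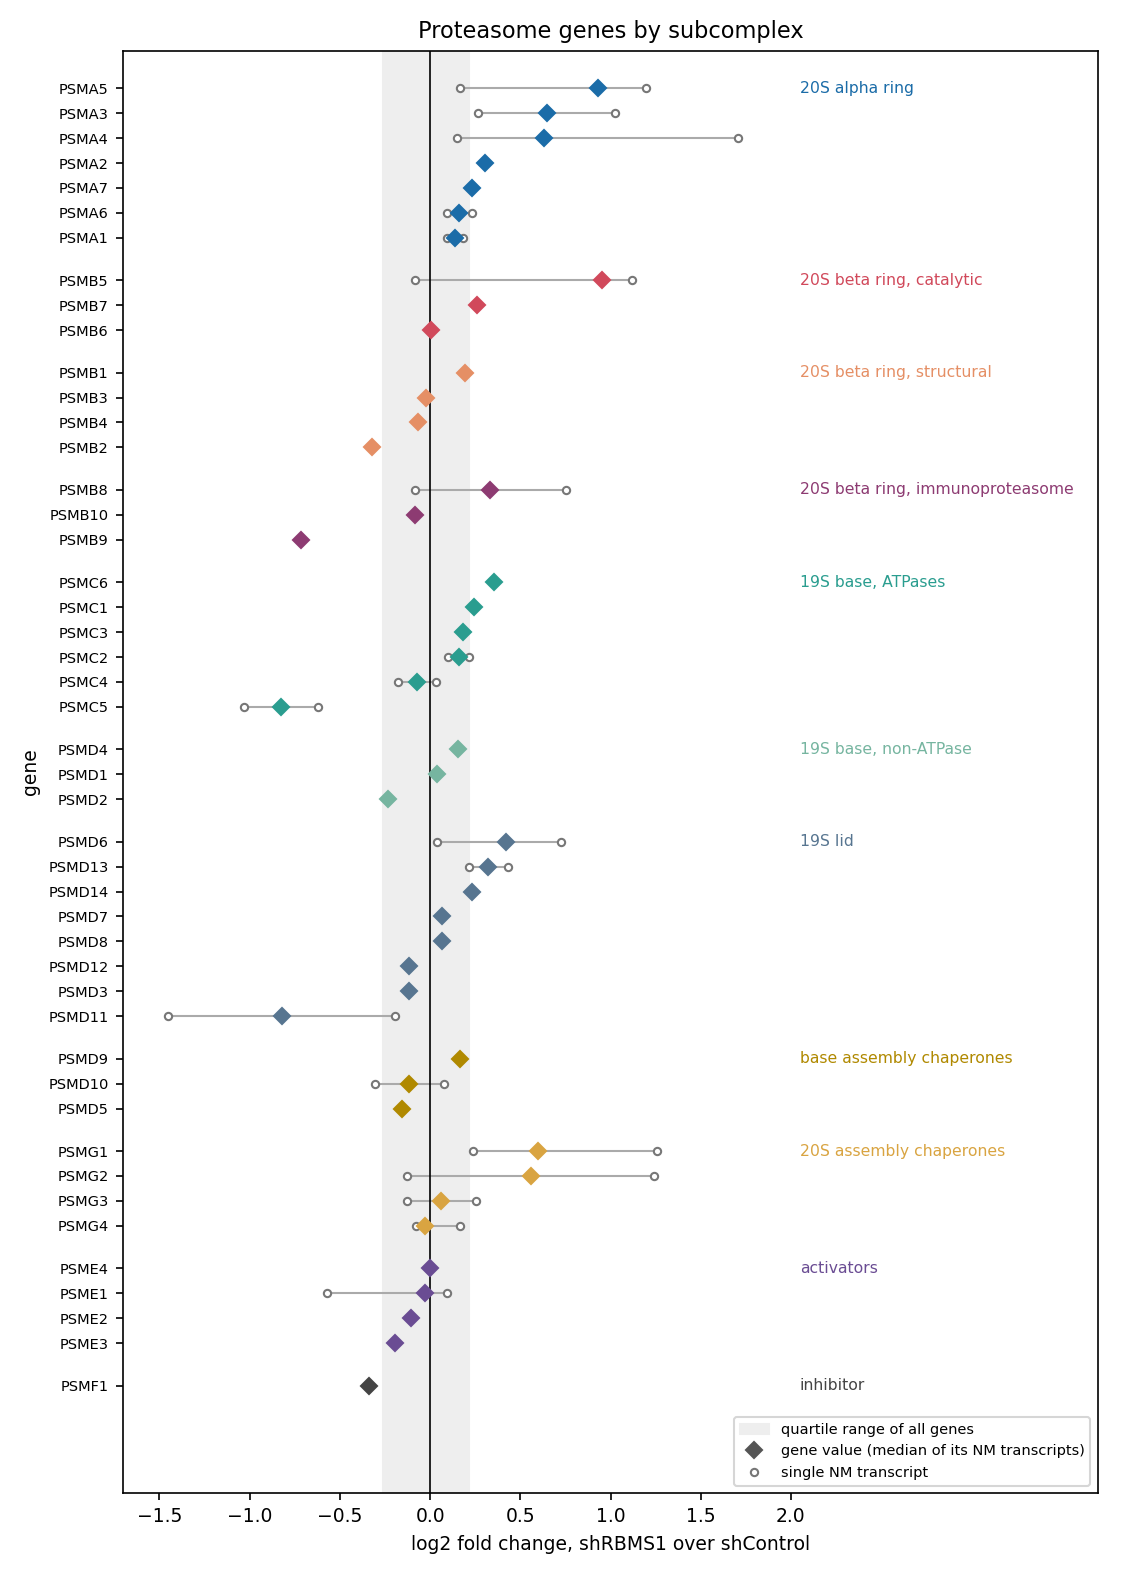
Log2 fold change (shRBMS1 over shControl, horizontal) of each of the 46 proteasome genes, in rows grouped by subcomplex. Diamonds are gene values, open circles the single NM transcripts of genes with several, and the grey band the quartile range of all genes from −0.26 to 0.22. All 7 alpha subunits lie above 0, and PSMC5, PSMD11 and PSMB9 are the lowest genes.

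The alpha ring stood highest of the core's parts, with a median of 0.31 (123.6% of control). Above 0 lay 7 of 7 measured genes, against 50.4% of all genes. Alpha subunits form the outer rings whose tails close the channel until an activator docks. Computed from the authors' deposited table, PSMA5 was at 0.93, PSMA3 at 0.65, PSMA4 at 0.63, PSMA2 at 0.31, PSMA7 at 0.23, PSMA6 at 0.16 and PSMA1 at 0.14. The 3 highest each rest on transcripts that lie apart. With the lowest-numbered transcript, usually the first one described for a gene, the 7 genes ran from 0.09 to 0.31 with a median of 0.18. All 7 then remained above 0, where 49.6% of all genes lay by the same measure. Transcript GC content was lower in the alpha ring, with a median of 42.6% over 6 genes against 50.7% over members and 49.2% over all genes. Its part in these values was not tested.

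Among the catalytic beta subunits the gene value of PSMB5 was 0.95, the highest of all members, at 193.6% of control. PSMB5 cuts after hydrophobic residues and is the main target of proteasome inhibitor drugs. That value rests on the transcripts NM_001130725 and NM_001144932, at 0.95 and 1.12 in the authors' deposited table, while NM_002797 stood at −0.08. PSMB7, the trypsin-like subunit, was at 0.26 and PSMB6, the caspase-like subunit, at 0.0031. Both have 1 measured transcript in the authors' deposited table. The 4 structural beta subunits, which carry no active site, lay around 0: PSMB1 was at 0.19, PSMB3 at −0.02, PSMB4 at −0.07 and PSMB2 at −0.32. Over the 7 constitutive beta subunits the median was 0.0031, with 4 above 0, against 50.4% of all genes.

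Immunoproteasome subunits replace the catalytic ones in immune cells and after interferon, and they change which peptides reach MHC class I. PSMB9, which takes the place of PSMB6, was at −0.72 or 60.9% of control from its 1 transcript in the authors' deposited table. PSMB10, which takes the place of PSMB7, was at −0.08, also from 1 transcript. PSMB8, the counterpart of PSMB5, was at 0.33 from transcripts apart, NM_004159 at 0.75 and NM_148919 at −0.08 in the authors' deposited table. Their GENCODE 29 models start 656 bases apart on chromosome 6. In each pair by gene value the constitutive subunit stood above its counterpart: 0.95 and 0.33 for PSMB5 and PSMB8, 0.0031 and −0.72 for PSMB6 and PSMB9, 0.26 and −0.08 for PSMB7 and PSMB10. With the lowest-numbered transcript the first pair turned, to −0.08 and 0.75. Of 10 leukocyte markers, listed because leukocytes express the immunoproteasome, 3 had a value, LYZ −0.68, CD68 −0.54 and LAPTM5 1.14; their part in these values was not tested. Other genes of peptide loading and its control had a median of −0.16, with 3 of 12 above 0, against 50.4% of all genes. The lowest was the peptide transporter TAP2 at −1.90, whose transcripts in the authors' deposited table were at −4.77 and 0.97. The highest was the peptide trimmer ERAP1 at 0.22, with transcripts from −0.70 to 1.63 in the authors' deposited table. By the lowest-numbered transcript the median of these 12 genes was −0.12, with 4 above 0, against 49.6% of all genes. TAP2 was then the highest at 0.97 and ERAP2 the lowest at −1.33, as in the authors' deposited table.

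The 19S base had a median of 0.15, with 6 of 9 above 0, against 50.4% of all genes. Of the ATPases, PSMC6 was at 0.35, PSMC1 at 0.24, PSMC3 at 0.18, PSMC2 at 0.16 and PSMC4 at −0.07, computed from the authors' deposited table. PSMC5 stood apart from the other 5, at −0.83 or 56.4% of control. The ATPases form a ring with 1 copy of each. Both PSMC5 transcripts were low in the authors' deposited table, NM_002805 at −0.62 and NM_001199163 at −1.03. PSMC5 overlaps FTSJ3, which was at 0.14, by 233 bases. Among the other base subunits the ubiquitin receptor PSMD4 was at 0.15, and the large scaffolds PSMD1 and PSMD2 were at 0.04 and −0.23. A non-coding PSMD1 transcript outside the rule, NR_034059, was at 9.56 in the authors' deposited table, and one of PSMG1, NR_049728, at 7.83. No levels stand beside these values, so whether such a transcript was barely present in 1 arm is unknown. Among all transcripts, 109 lie between 9 and 10 and none beyond 10.

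The 19S lid had a median of 0.07, with 5 of 8 above 0, against 50.4% of all genes. PSMD14, the deubiquitinase that frees the substrate of its chain, was at 0.23 and its inactive partner PSMD7 at 0.07, both from 1 transcript in the authors' deposited table. The remaining lid subunits are scaffolds: PSMD6 was at 0.42, PSMD13 at 0.32, PSMD8 at 0.07, PSMD12 at −0.12 and PSMD3 at −0.12. PSMD11, whose raised level is known to favour assembly of the capped proteasome, was at −0.82. Its transcripts differed in the authors' deposited table, NM_002815 at −0.20 and NM_001270482 at −1.45. Both link to the same GENCODE 29 model, so what sets them apart in structure is not given here. The COP9 signalosome, a relative of the lid, had a median of −0.03 with 4 of 9 above 0, against 50.4% of all genes. COPS5, its relative of PSMD14, was highest at 0.45, and COPS3 lowest at −4.32, with transcripts that in the authors' deposited table were at −8.63 and −0.02.

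Assembly factors went both ways. PSMG1 and PSMG2, which pair to seat the alpha ring, were at 0.60 and 0.56, while PSMG3 and PSMG4, the other pair, were at 0.06 and −0.03. With the lowest-numbered transcripts these 4 had values of 0.24, −0.13, −0.13 and −0.08, as in the authors' deposited table. PSMD9, PSMD10 and PSMD5, chaperones of the ATPase ring, were at 0.17, −0.12 and −0.16. The activators were close to 0 or below: PSME4, a nuclear cap, was at 0.0005, PSME1 at −0.03, PSME2 at −0.10 and PSME3 at −0.20. PSME1 and PSME2 build the interferon-induced cap, and PSME3 its nuclear relative. The regulator PSMF1, described as an inhibitor of the core, was at −0.34 in the authors' deposited table. Together with PSMF1 the activators had a median of −0.10, and 1 of 5 lay above 0, against 50.4% of all genes. By the lowest-numbered transcript 2 of 5 lay above 0, against 49.6% of all genes. PSME1 was then at 0.09, and its transcripts in the authors' deposited table ran from −0.57 to 0.09.

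**Figure D2:**
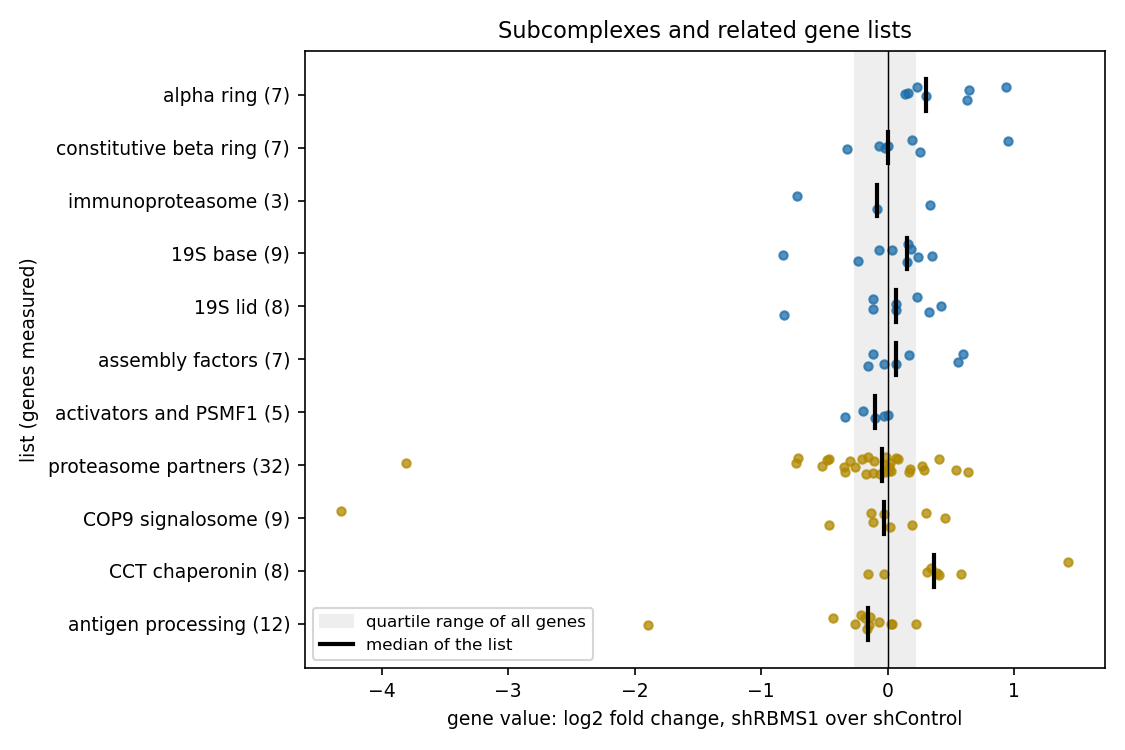
Gene values (log2 fold change, horizontal) in 7 proteasome groups (blue) and 4 related lists (ochre), with the number of measured genes beside each name. Vertical marks are medians and the grey band the quartile range of all genes. The alpha ring, at 0.31, and the CCT chaperonin, at 0.37, have the highest medians.

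Proteins that work with the proteasome but fall outside the naming rule had a median of −0.04. Of the 32 measured genes, 13 lay above 0, against 50.4% of all genes. At or above 0.5 were the ubiquitin receptor ADRM1 at 0.63 and DDI2, the protease that activates NFE2L1, at 0.54. At or below −0.5 were the deubiquitinase USP14 at −0.71, the shuttle factor UBQLN1 at −0.72, ZFAND5 at −0.52 and PAAF1, a chaperone of the base, at −3.81. Transcripts of ADRM1 in the authors' deposited table ran from −0.12 to 1.75 and those of PAAF1 from −8.17 to 0.55. By the same source UBQLN1 transcripts were at −1.53 and 0.08 and those of USP14 at −1.15 and −0.27. ZFAND5 transcripts ran from −0.62 to −0.08 there. NFE2L1 was at −0.11 and its relative NFE2L2 at −0.48, the latter with transcripts of −1.07 and 0.11 per the authors' deposited table. The core maturation factor POMP was at −0.02 and the small lid subunit SEM1 at 0.06. Of the CCT chaperonin, another large ring complex of fixed proportion, 6 of 8 genes lay above 0, against 50.4% of all genes. CCT3 was highest at 1.43 (0.28 and 2.58 for its transcripts, per the authors' deposited table) and CCT4 lowest at −0.16. By the lowest-numbered transcript 8 of 8 lay above 0, against 49.6% of all genes.

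Most member values far from 0 came from transcripts other than the lowest-numbered one. Of the 72 transcripts, 6 (8.33%) lay at or above 1, against 7.77% of all NM transcripts: one each of PSMA4 (1.71), PSMG1 (1.26), PSMG2 (1.24), PSMA5 (1.20), PSMB5 (1.12) and PSMA3 (1.03) in the authors' deposited table. At or below −1 were one of PSMD11 and one of PSMC5, 2.78% against 7.93%. None of these 8 is the lowest-numbered transcript of its gene. The corresponding share over all genes was not computed, so whether members differ from other genes in this is unknown. By the lowest-numbered transcript, 43 of 46 members lay within 0.5 of 0, against 75.9% of all genes, and 37 within 0.25, against 51.6%. The 3 beyond 0.5 were PSMB8 at 0.75, PSMB9 at −0.72 and PSMC5 at −0.62 in the authors' deposited table.

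In the 19 members with several transcripts, 17 of 26 other transcripts (65.4%) stood above the lowest-numbered one of their gene, against 52.4% over all genes. The median of that difference was 0.30, and 0.05 over all genes. Transcripts more than 1 apart occurred in 6 of the 19 (31.6%) against 48.4% of genes with several. The largest difference was in PSMA4, where NM_001102668 stood 1.56 above NM_002789. In PSMG2, on chromosome 18, NM_147163 stood 1.37 above NM_020232. Its GENCODE 29 model starts 43688 bases further upstream, and PSMG2 overlaps CEP76 and SPIRE1, which were at 0.47 and 0.39. By GENCODE 29 models of PSMB5, NM_001130725 starts 85 bases before NM_002797 and NM_001144932 255 bases after it, and both stood higher, by 1.04 and 1.20. The other transcripts linked to 20 GENCODE 29 models distinct from that of the lowest-numbered one, of which 17 were shorter (85.0%), against 68.8% of 5377 over all genes. The sources used here do not say how reads were divided between overlapping transcripts.

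**Figure D3:**
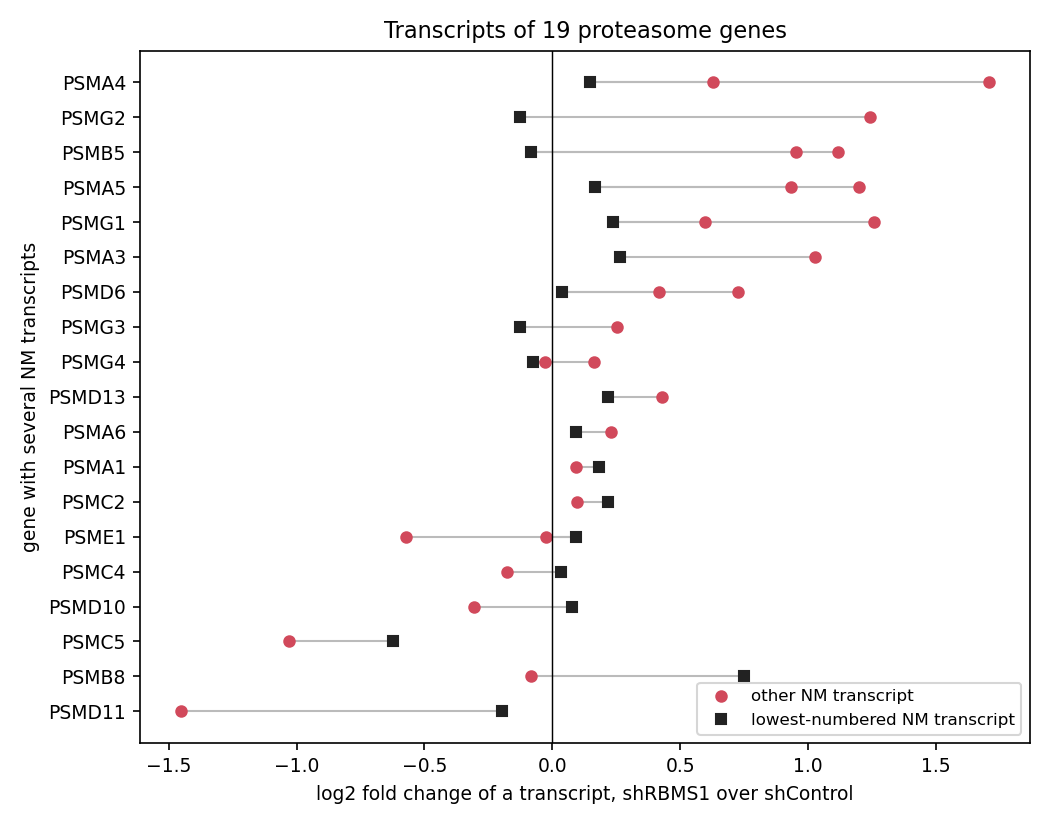
Log2 fold change of each NM transcript (horizontal) in the 19 proteasome genes with several, in rows by gene. Black squares are lowest-numbered transcripts and red circles the others. In PSMA4, PSMG2, PSMB5, PSMA5, PSMG1 and PSMA3 a red circle lies beyond 1, and in PSMC5 and PSMD11 one lies below −1.

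By position, the members on chromosome 17 had the lowest median among chromosomes with more than 1 member. The 7 genes there had a median of −0.12: PSMB6 at 0.0031, PSMB3 at −0.02, PSMD12 at −0.12, PSMD3 at −0.12, PSME3 at −0.20, PSMD11 at −0.82 and PSMC5 at −0.83. They come from the core, base, lid and activators, and 1 of 7 lay above 0. All 708 measured genes of chromosome 17 also had a median of −0.12, the lowest of 23 chromosomes, and 35.0% lay above 0. On chromosome 14, which holds 7 members too, the members' median was 0.24 with 5 of 7 above 0. All 401 genes there had a median of 0.02, and 52.6% lay above 0. Off chromosome 17, 27 of 39 members (69.2%) lay above 0, with a median of 0.16. All genes off it had 51.5% above 0 and a median of 0.01. Chromosome 17 was set aside after these values were seen, and leaving out its low members by itself raises the members' share. The part of the chromosome in the members' values was not tested.

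**Figure D4:**
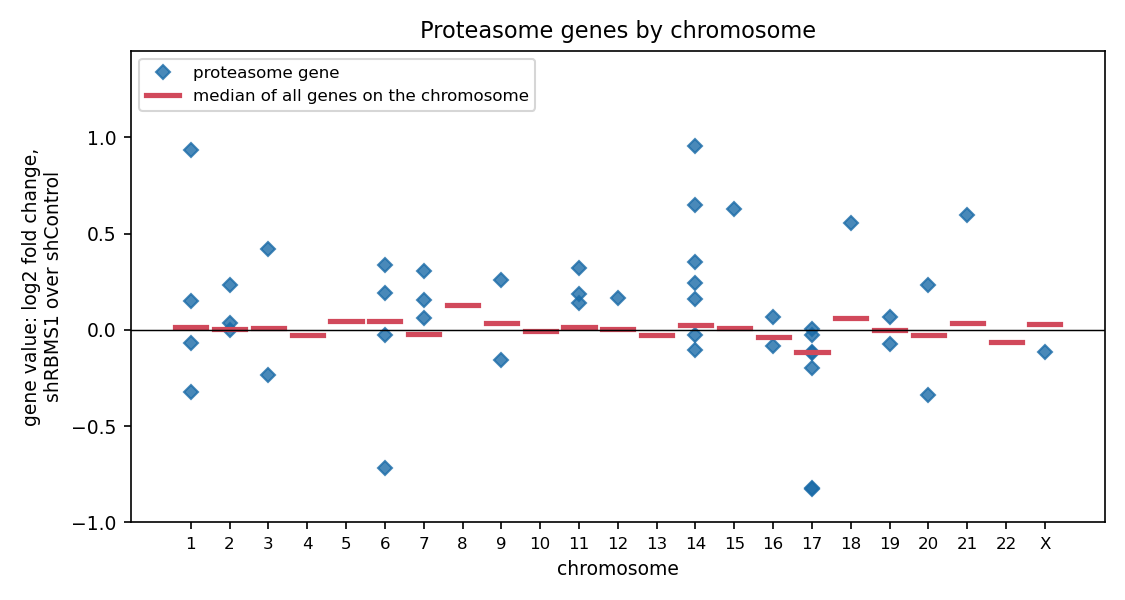
Gene values of the 46 proteasome genes (diamonds, log2 fold change, vertical) by chromosome, with the median of all measured genes of each chromosome (red bars). On chromosome 17 the red bar is at −0.12, the lowest of 23, and 1 of 7 diamonds lies above 0.

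Gene values were weakly related to the base composition of the transcripts. Across 45 members with a GENCODE 29 model, Spearman's rho between gene value and GC content was −0.23, and across 11228 genes it was −0.17. With transcript length it was −0.09 and −0.14. Genes share the same libraries and are not independent points. When all genes were split into 3 classes of equal size by GC content, the lowest (31.8 to 44.5%) held 10 members with a median of 0.10, and all its genes had 0.09. In the middle class (to 54.7%) 25 members had a median of 0.15 and all genes −0.02, and in the highest (to 74.7%) 10 members had −0.03 and all genes −0.07. In the lowest and highest classes the members' median lay close to that of all genes, and in the middle one it lay further above. The part of GC content in the members' values was not tested.

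**Figure D5:**
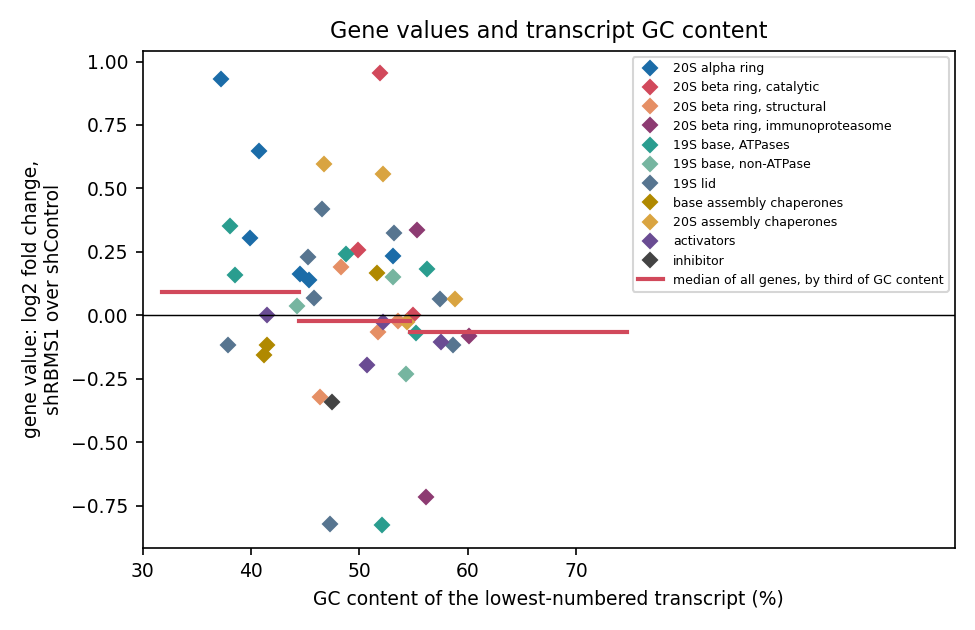
Gene values (log2 fold change, vertical) of 45 proteasome genes against the GC content of their lowest-numbered transcript (percent, horizontal), coloured by subcomplex. Red lines are medians of all genes in 3 classes of GC content, at 0.09, −0.02 and −0.07, and PSMB5, PSMA5 and PSMA3 lie highest.

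Copies and overlaps limit single values. GENCODE 29 names 30 pseudogenes for 10 of the members, and 13 of the 30 are copies of PSMC1. The sources used here do not say how reads shared with such copies were assigned, or whether counting used strand. By RefSeq coordinates, 6 members overlap another protein-coding gene: PSMC1, PSMC2, PSMC5, PSMD1, PSMD10 and PSMG2.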

How the data were processed

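Total RNA from SW480 cells was measured in 3 libraries, grouped by the shRNA in the labels: 2 shControl and 1 shRBMS1. The authors deposited 1 table of 20104 RefSeq transcripts with a log fold change each, taken here as log2. Its header gives neither base nor direction. The base was read from the spacing around 14 values shared by at least 3 transcripts: a distance of 1 (tolerance 1.5e-05) held for 20 transcripts, ln 2 for 4 and log10 of 2 for 5. Cuffdiff, Cufflinks, STAR 2.5 and the build hg38 are listed, per the submitters' processing notes. The sources used here do not give their settings or filters.

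RefSeq (GRCh38.p14) gave gene names for 19818 transcripts (98.6%), of which 17868 are NM transcripts of 11487 genes. GENCODE 29 gave lengths, GC content and 3′ untranslated regions through its RefSeq links. Values were counted at 1 and 0.5 in each direction, without a test. The text names RBMS1, every member, single transcripts more than 1 apart or beyond 1, and the ends of each other list. Members and lists were chosen with earlier results of these data known. Epithelial markers and the chromosome 17 setting were chosen after seeing the data. The gene medians were tested on shuffled values with a known shift added, which they recovered. A median always moves by an added constant, so this checks the code and not the results. Python 3.11.15, numpy 2.4.6, pandas 2.3.3, scipy 1.17.1 and matplotlib 3.10.9 were used.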

Additional observations from a re-analysis of the deposited data

How the results depend on the processing

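Settings were compared for the members' median, the count above 0, the counts beyond 1 and the median of each of 11 groups, and a median was counted as moved when it shifted by at least 0.1. With 0.5 in place of 1 as threshold, the counts beyond it went from 0 to 6 higher and 3 lower. Among genes with 1 measured NM transcript, 15 of 27 members lay above 0, the immunoproteasome median was −0.40, the catalytic median 0.13, and that of the base chaperones changed sign to 0.0052. With the transcript nearest to 0, the alpha ring median was 0.17, the catalytic one 0.0031, the base chaperones 0.076 and the core chaperones −0.078, the last pair with changed sign. With the lowest-numbered transcript these 4 medians were 0.18, 0.0031, 0.076 and −0.10. Without genes on chromosome 17, a setting chosen after seeing the data, the lid median was 0.23 and the catalytic one 0.61. In these settings fewer genes or other transcripts enter, and the cause was not tested. The other 90 comparisons stayed within these limits, those with the mean of transcripts, with centring and without transcripts beyond 5 among them. No paired analysis was possible because the knockdown has 1 library and the table holds no value per library. For the same reason no library could be left out. The unknown depth limits every value.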
